A study of Mus musculus with 15 samples.

Results

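The Notch receptors Notch1, Notch2 and Notch3, their ligands Jag1, Jag2 and Dll1 and the HES/HEY target genes Hes1, Hey1, Hey2 and Heyl were followed in tumour cells of mouse basal cell carcinoma. These 10 genes, a list of pathway members matched by Entrez identifier, were taken from the 36528 genes in the deposited tables, and all 10 passed the filter on low counts. Polyadenylated RNA was sequenced from cells sorted from skin tumours of mice given vismodegib for 6 days (8 libraries) or 14 days (3 libraries). Tumours of mice labelled control gave 4 further libraries. Vismodegib inhibits Smoothened, the transducer of Hedgehog signalling. Every group carried K14Cre-ER; Ptch1fl/fl; p53fl/fl and Lgr5GFP, so Ptch1 and p53 were floxed in the controls as well, and no library is from normal skin. The labels used here state no age. Cre-ER from the K14 promoter acts in basal keratinocytes. The sort gate is not described, and nothing says that replicates are different mice, so p-values speak only for the spread among the sequenced libraries.

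Notch receptors are cut in steps when a Jagged or Delta ligand on a neighbouring cell pulls on them. The freed intracellular part joins the DNA-binding protein RBPJ and switches on genes, among them the HES and HEY repressors. In mouse epidermis, Notch1 drives the switch of basal cells to spinous differentiation and acts as a tumour suppressor, Jag2 lies in basal cells, Jag1 and Notch3 are prominent above the basal layer, and Hes1 keeps spinous cells immature.

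Total counts per library ran from 27336935 to 256569828. The sample identifiers given by the submitters form 3 runs of numbers (called identifier ranges here; no label names a batch). Range A holds 5 6-day and 3 control libraries (totals up to 38657170), range B holds 3 6-day libraries and control replicate 4 (at least 93183564), and range C holds the 3 14-day libraries alone, so that range and 14 days cannot be told apart. Summed markers of tumour keratinocytes were high in all groups, at 31254 to 44450 CPM (counts scaled to library totals adjusted by TMM factors) in 6-day, 33472 to 45517 in 14-day and 22439 to 37105 in control libraries. Of the tumour keratinocyte markers 1 of 9 was higher at 6 days and 3 of 9 at 14 days. Of the spinous markers 1 of 7 was higher at 14 days. Of the endothelial markers 1 of 6 was lower at 14 days, and no fibroblast or melanocyte marker passed against control. Over all genes tested, in either direction, 1.26% passed at 6 days and 6.60% at 14 days. Lymphoid markers summed to at most 3.94 CPM in any library. Fewer cells of a type and less RNA per cell cannot be told apart in these bulk libraries.

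Heyl was the 1 gene of the 10 that passed the test after vismodegib, and it was lower at both times. Of 10 members, 1 was called at 6 days, where 1.26% of the 18751 genes tested were called, 1 at 14 days, where 6.60% were called, and 0 at 14 days against 6 days, where 3.89% were called. A gene was called when its adjusted p (edgeR's quasi-likelihood test, Benjamini-Hochberg over all genes) was under 0.05. For 14 against 6 days, DESeq2 called 1 member (Heyl), where it called 2609 of the 18751 genes, and limma-voom called 0, where it called 4693. At an unadjusted edgeR p under 0.05 were 3 members at 6 days (Jag1, Hes1 and Heyl) and 4 at 14 days (Jag1, Dll1, Hes1 and Heyl). At 14 against 6 days there were 2, Heyl and Notch3. The share over all genes at this threshold was not counted, so nothing is read from these counts. The median log2 fold change of the 10 was -0.20 at 6 days, -0.03 at 14 days and -0.21 between the times, against 0.03, -0.02 and -0.06 over all genes tested. Both treated groups were set against the same 4 controls.

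**Figure D1:**
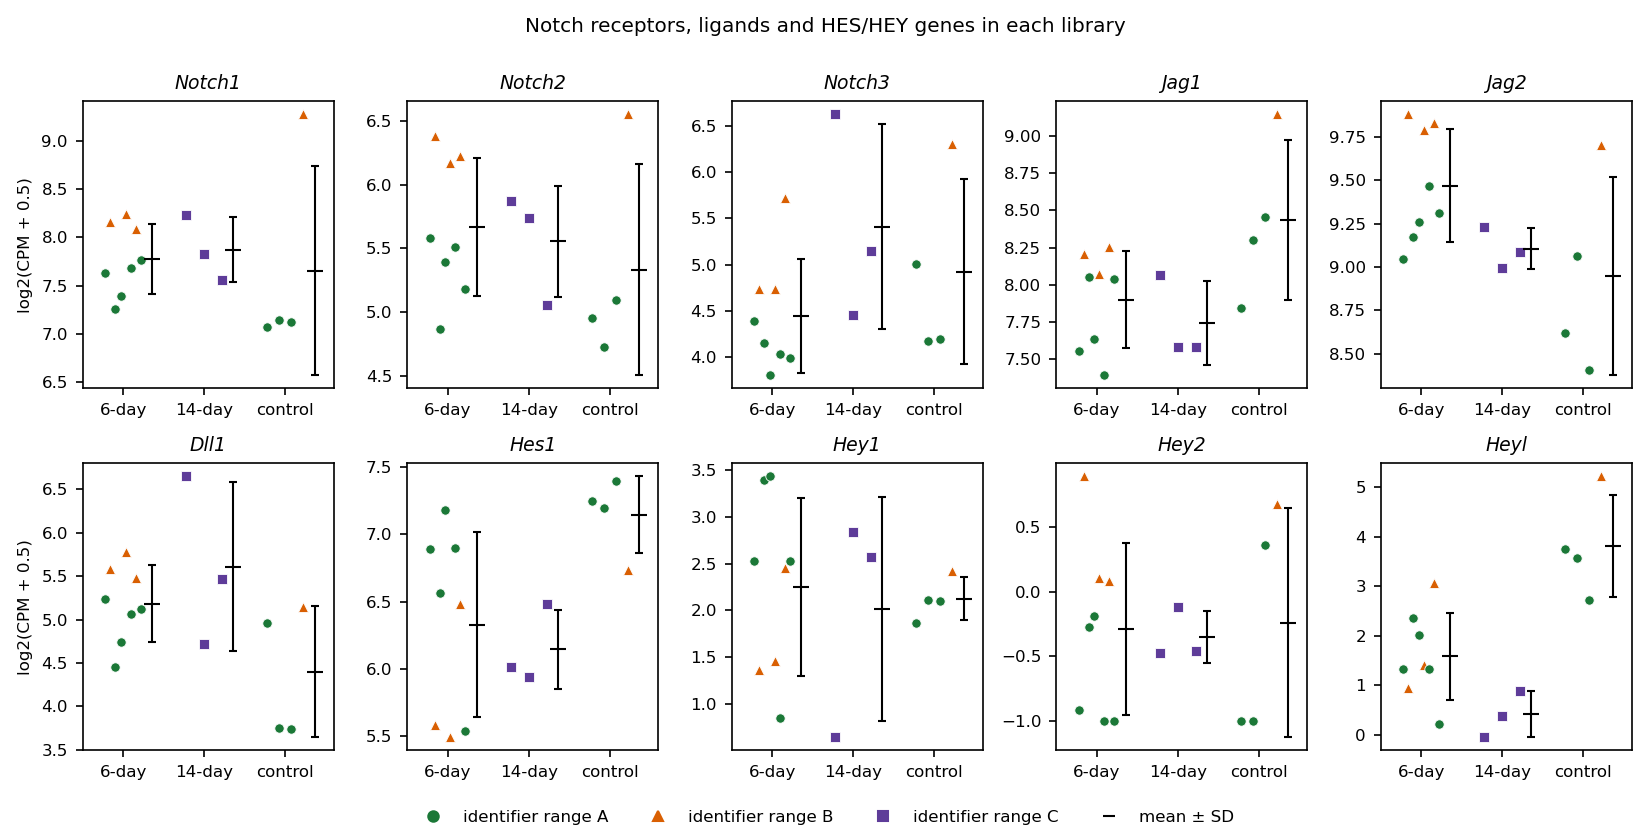
Level of each of the 10 genes in each library as log2(CPM + 0.5), by group, with the identifier range as colour and symbol and the group mean ± SD as a bar. Heyl lies lower in the treated groups, at no more than 7.80 CPM in any treated library. Control replicate 4 stands highest of its group for every receptor and every ligand.

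Per length, Jag2 had the highest mean of the 10 genes in every group. On the deposited RPKM scale, it averaged 116 ± 25.8 RPKM (SD, n = 8) in 6-day libraries, 88.6 ± 7.95 RPKM (n = 3) in 14-day libraries and 86.1 ± 36.5 RPKM (n = 4) in controls. Hes1 came next, at 42.1 ± 18.6, 34.3 ± 7.46 and 70.3 ± 12.8 RPKM in the same groups, followed by Jag1 at 36.7 ± 7.73, 32.7 ± 6.93 and 56.6 ± 22.5 RPKM. The ranges of Hes1 and Jag1 overlapped in all 3 groups, and in controls those of Jag2 and Hes1 did too. Jag2 was above Hes1 in only 2 of 4 control libraries. Notch1 and then Dll1 came after them in each group, followed by Notch2 and Notch3, whose ranges overlapped in all 3 groups. The lowest levels were those of Hey1, Heyl and Hey2. Heyl averaged 0.553 ± 0.413 RPKM at 6 days and 0.161 ± 0.0819 RPKM at 14 days, below Hey1 at 1.78 ± 1.20 and 1.503 ± 1.004 RPKM in every treated library. In controls Heyl averaged 3.15 ± 2.57 RPKM and was above Hey1, at 1.38 ± 0.253 RPKM, in 3 of 4 libraries.

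Notch1, the main epidermal receptor (chromosome 2, 26457902 to 26503822, minus strand, GRCm38), ran from 153 CPM to 301 CPM in 6-day libraries with a median of 211 CPM. It was at 301, 227 and 188 CPM in the 14-day libraries. The controls held 134, 141, 139 and 619 CPM. Control replicate 4 thus held more Notch1 than any other library, and the 3 other controls held less than every treated library. The log2 fold change was -0.20 ± 0.37 (SE, as for all fold changes given with ±) at 6 days (adjusted p = 0.930) and -0.11 ± 0.47 at 14 days (0.916). Within range A the 5 6-day libraries (153 to 217 CPM) all lay above the 3 controls (134 to 141 CPM), a log2 fold change of 0.43 (adjusted p = 0.158). Within range B the 3 6-day libraries (272 to 301 CPM) lay below the single control at 619 CPM, a log2 fold change of -1.12 (adjusted p = 0.0390, resting on that control). Notch1, Notch3 and Dll1 share exon bases with noncoding genes on the opposite strand, and without known strand handling such reads cannot be told apart. Notch2 shares exon bases with Gm42820 on its own strand, where strand handling would not separate the reads. Without the range B libraries the 14-day log2 fold change was 0.77 (adjusted p = 0.0208).

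Notch2, another receptor of keratinocytes (chromosome 3, 98013538 to 98150367, plus strand), ran from 28.8 CPM to 82.8 CPM at 6 days with a median of 46.3 CPM. The 14-day libraries held 58.2, 52.8 and 32.9 CPM, and the controls 30.5, 26.1, 33.7 and 93.2 CPM. All 3 groups overlapped, with log2 fold changes of 0.22 ± 0.36 at 6 days (adjusted p = 0.922) and 0.06 ± 0.44 at 14 days (0.951). In 6-day libraries Notch2 followed the identifier range, at no more than 47.4 CPM in range A and at least 71.5 CPM in range B. This was not particular to Notch2. For every other receptor and ligand of the list, too, each range B 6-day library lay above each range A 6-day library. Jag1 had the closest ranges, with at most 265 CPM in range A and at least 269 CPM in range B. Range B libraries also had the higher totals, and the part of depth was not tested.

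Notch3, a receptor of suprabasal keratinocytes and, outside the epidermis, of the smooth muscle and pericytes of vessels (chromosome 17, 32120820 to 32166896, minus strand), was the most uneven receptor at 14 days. Its 14-day libraries held 97.97, 21.5 and 34.9 CPM, the 6-day libraries ran from 13.5 CPM to 52.0 CPM with a median of 18.9 CPM, and the controls held 31.7, 17.6, 17.9 and 78.5 CPM. The groups overlapped, and 14-day replicate 1 and control replicate 4 were the 2 highest libraries. Log2 fold changes were -0.64 ± 0.47 at 6 days against control (adjusted p = 0.692), 0.50 ± 0.60 at 14 days against control (0.674) and 1.14 ± 0.51 at 14 against 6 days (0.198). With range B as a covariate the difference between the times was 1.72 (adjusted p = 0.0116), and without 14-day replicate 1 it was 0.28 in the fit without the covariate. In that library the summed markers of spinous keratinocytes reached 7141 CPM, against 503 and 2283 CPM in the other 14-day libraries, 489 to 1578 CPM at 6 days and 548 to 1980 CPM in controls. The part of spinous differentiation in the Notch3 value was not tested.

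Notch1 made up most of the receptor RNA per length in every library. Its share of the summed receptor RPKM, with Notch4 counted in, was 67.5 to 80.6% at 6 days, 63.8 to 75.3% at 14 days and 66.4 to 77.3% in controls. The share of Notch3 was 9.13, 7.92, 10.3, 7.20, 7.82, 7.11, 15.4 and 6.84% in 6-day replicates 1 to 8. It was 24.9, 8.52 and 16.0% in 14-day libraries and 18.8, 11.3, 11.1 and 11.7% in controls. In 7 of 8 6-day libraries, all but replicate 7, the share of Notch3 lay below every control, with no test because the measure was chosen after values were seen. Notch4, a receptor of endothelium, added little, at no more than 2.52 CPM in any library.

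Jag2, the ligand of the basal layer (chromosome 12, 112907803 to 112929812, minus strand), ran from 527 CPM to 941 CPM at 6 days with a median of 671 CPM. The 14-day libraries held 601, 510 and 543 CPM and the controls 392, 534, 339 and 831 CPM. Control replicate 4, of range B, was again the highest control. The log2 fold change was 0.47 ± 0.24 at 6 days (adjusted p = 0.449), against 0.52 (range A) and 0.13 (range B) within ranges, and 0.07 ± 0.29 at 14 days (0.913).

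Jag1, the other Jagged ligand (chromosome 2, 137081451 to 137116520, minus strand), ran from 167 CPM to 304 CPM at 6 days with a median of 264 CPM. It was at 268, 190.4 and 190.5 CPM in 14-day libraries and at 230, 315, 351 and 567 CPM in controls. Control replicate 1 fell inside the range of the treated libraries, and the 3 other controls lay above all 11 of them. Jag1 had a log2 fold change of -0.59 ± 0.22 at 6 days (adjusted p = 0.256), against -0.48 (range A) and -0.98 (range B) within ranges, and -0.76 ± 0.29 at 14 days (0.131). With range B as a covariate the 6-day value was -0.62 (adjusted p = 0.0458) and the 14-day value -0.56 (0.0895).

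Per length, Jag2 exceeded Jag1 by more in every treated library than in any control. The ratio of Jag2 RPKM to Jag1 RPKM was 2.98, 3.39, 2.30, 3.28, 3.49, 4.49, 3.17 and 2.57 in 6-day replicates 1 to 8. It was 2.38, 2.84 and 3.03 in 14-day libraries and 1.81, 1.80, 1.03 and 1.56 in controls. The lowest treated library, 6-day replicate 3, lay above the highest control, replicate 1. Within range A the 6-day ratio averaged 3.13 ± 0.852 (SD, n = 5) and the control ratio 1.55 ± 0.451 (n = 3), and within range B the 3 6-day libraries averaged 3.35 ± 0.164 beside the control at 1.56. The ratio was formed after the values of both genes were seen, so it is given with no test.

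**Figure D2:**
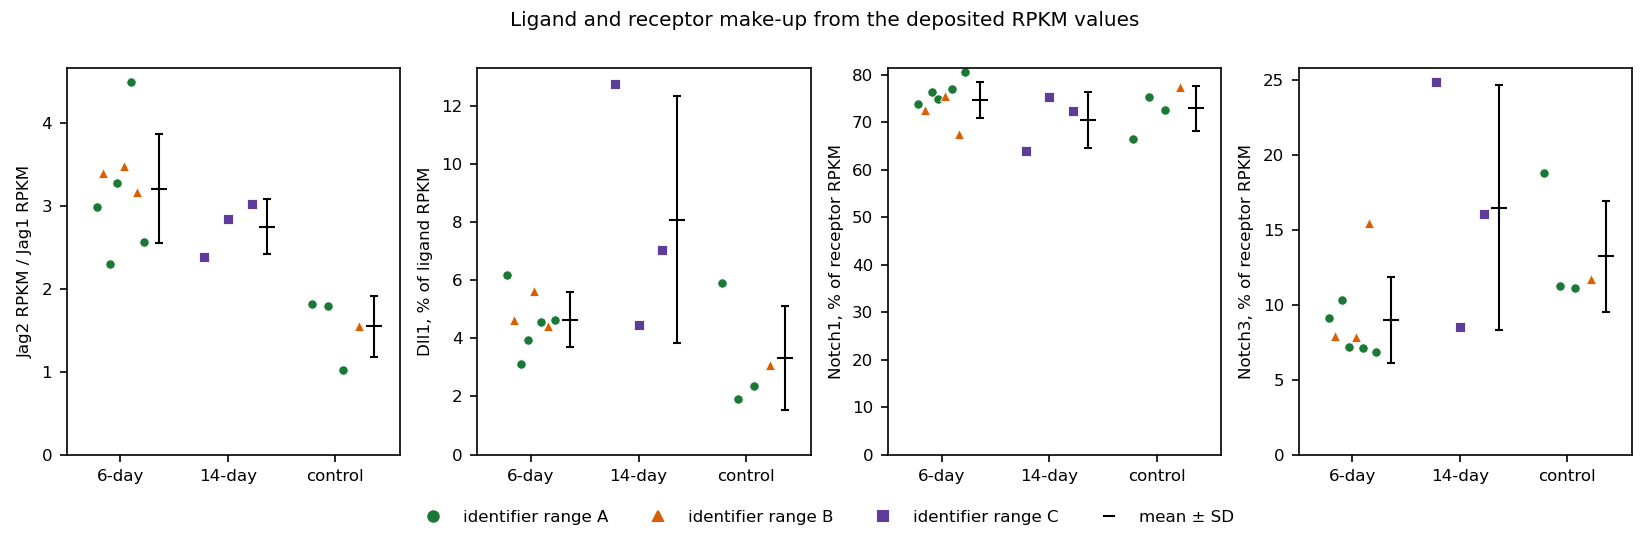
Ratio of Jag2 to Jag1 RPKM, and shares of Dll1, Notch1 and Notch3 in the summed ligand or receptor RPKM, in each library, by group, with the group mean ± SD as a bar. Every treated library lies at or above 2.30 for the Jag2 to Jag1 ratio, and every control at or below 1.81.

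Dll1, the Delta ligand that in human epidermis marks clusters of stem cells (chromosome 17, 15367354 to 15376932, minus strand), ran from 21.3 CPM to 54.4 CPM at 6 days with a median of 35.8 CPM. The 14-day libraries held 99.7, 25.7 and 43.8 CPM and the controls 30.5, 13.0, 12.9 and 34.9 CPM. All groups overlapped, through control replicates 1 and 4. Dll1 had a log2 fold change of 0.71 ± 0.38 at 6 days (adjusted p = 0.484) and 1.30 ± 0.45 at 14 days (0.0989). With range B as a covariate the 14-day value was 1.54 (adjusted p = 0.0166), and without 14-day replicate 1 it was 0.62 in the fit without the covariate. Replicate 1 of the 14-day group, highest for Dll1 as for Notch3, was also the library with 7141 CPM of spinous markers, and their part in the Dll1 value was not tested. Dll1 made up 3.12 to 6.19% of the ligand RPKM at 6 days, 12.7, 4.45 and 7.03% at 14 days, and 5.89, 1.91, 2.35 and 3.10% in controls.

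Among the HES/HEY targets of the list, Hes1 was the most abundant and Heyl the one called in the main fit. Hes1, a repressor that answers Notch in many tissues (chromosome 16, 30065357 to 30067796, plus strand), ran from 44.5 CPM to 145 CPM at 6 days with a median of 91.4 CPM. It was at 64.2, 60.8 and 88.9 CPM in 14-day libraries and at 152, 147, 168 and 106 CPM in controls. The 14-day libraries lay below every control, and the 6-day libraries overlapped them through 3 libraries. The log2 fold change was -0.70 ± 0.30 at 6 days (adjusted p = 0.335), against -0.59 (range A) and -0.82 (range B) within ranges, and -1.003 ± 0.40 at 14 days (0.142). At 14 days it was -1.17 with range B as a covariate (adjusted p = 0.0263) and -1.14 without the range B libraries (0.0425).

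Hes1 and Heyl were the 2 of 10 members whose 14-day and control libraries did not overlap, both lower at 14 days, where 23.4% of all genes tested did not overlap. None of the 10 was separated at 6 days against control (2.69% of all genes) or at 14 against 6 days (11.7%).

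Heyl, a HEY repressor that Notch3 is known to switch on in vascular smooth muscle (chromosome 4, 123233556 to 123249870, plus strand), ran from 0.664 CPM to 7.80 CPM at 6 days with a median of 2.08 CPM. The 14-day libraries held 0.472, 0.807 and 1.36 CPM and the controls 13.0, 11.3, 6.06 and 36.6 CPM. All 14-day libraries and 7 of 8 6-day libraries lay below every control, 6-day replicate 7 lying between control replicates 3 and 2. At 6 days Heyl fell by 2.46 ± 0.56 on the log2 scale (95% interval -3.66 to -1.27, adjusted p = 0.0451), against -1.98 within range A (0.0857) and -3.27 within range B (0.115). At 14 days it fell by 4.25 ± 0.87 (-6.11 to -2.40, adjusted p = 0.0114). At 14 against 6 days the log2 fold change was -1.79 ± 0.72 (adjusted p = 0.156).

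The 6-day call for Heyl depended on single libraries. The log2 fold change lay between -2.86 and -1.73 when each of the 15 libraries was left out in turn, while the adjusted p passed in 2 of the 15 fits and reached 0.125. The 2 fits that passed left out 14-day replicate 1 and 6-day replicate 7. The smallest value, -1.73, came without control replicate 4. At 14 days the call was kept in 13 of 15 fits, with log2 fold changes of -4.70 to -3.53, and was lost without 14-day replicate 1 or 2 (highest adjusted p = 0.0656).

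Markers of mural cells, which carry Heyl and Notch3 in vessel walls, were looked at beside Heyl. Of the 12 markers listed, Rgs5, Des, Higd1b and Cox4i2 stayed under 1 CPM in all 15 libraries, and Rgs5 had no count in any 6-day or control library. The channel genes Abcc9 and Kcnj8 fell at 14 days. Abcc9 averaged 0.314 ± 0.160 CPM at 14 days and 7.59 ± 2.11 CPM in controls (log2 fold change -4.59, adjusted p = 0.0417), and Kcnj8 0.536 ± 0.520 and 28.3 ± 14.2 CPM (-5.73, 0.0378). At 6 days they averaged 0.980 ± 1.10 and 4.61 ± 5.58 CPM and were not called (adjusted p = 0.0956 and 0.205). Of 9 markers tested, 2 were lower and 0 higher at 14 days, where 6.60% of all genes were called. At 6 days 0 passed, where 1.26% of all genes were called. The 9 had median log2 fold changes of -1.61 at 14 days and -0.92 at 6 days. The contractile genes Acta2 and Tagln averaged 2.94 and 6.89 CPM at 6 days, 2.88 and 4.84 CPM at 14 days and 10.1 and 13.1 CPM in controls, and the surface proteins Mcam and Cspg4 29.5 and 404 CPM, 21.2 and 344 CPM, and 67.9 and 579 CPM in the same groups. None of these 4 was called at either time, though every 14-day library held less Tagln than every control. Ndufa4l2 went the other way, averaging 31.8 CPM at 6 days, 33.6 CPM at 14 days and 27.0 CPM in controls, and was not called. Myh11 averaged 0.239, 0.139 and 0.410 CPM in the same groups. The 12 markers summed to 243 to 817 CPM at 6 days, 273 to 509 CPM at 14 days and 406 to 999.5 CPM in controls. By mean, Cspg4 was the largest part of this sum in each group. Summed endothelial markers were at 5.83 to 10.29 CPM at 6 days, 5.64 to 8.13 CPM at 14 days and 10.32 to 13.5 CPM in controls. Every treated library thus lay below every control, while 6 of the 11, Cdh5, Kdr, Tie1, Emcn, Cldn5 and Sox17, stayed under 1 CPM throughout. Egfl7 was the largest part by mean, at 4.10 CPM at 6 days, 2.17 CPM at 14 days and 5.75 CPM in controls. Pecam1 averaged 1.497, 0.824 and 1.499 CPM and Vwf 1.15, 1.63 and 1.14 CPM in the same groups. Of the 6 endothelial markers tested, 4 were higher at 14 than at 6 days, as were 46.5% of all genes tested. Of the 6, 0 were called, where 3.89% of all genes were called. The part of mural and endothelial cells in the Heyl value was not tested.

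**Figure D3:**
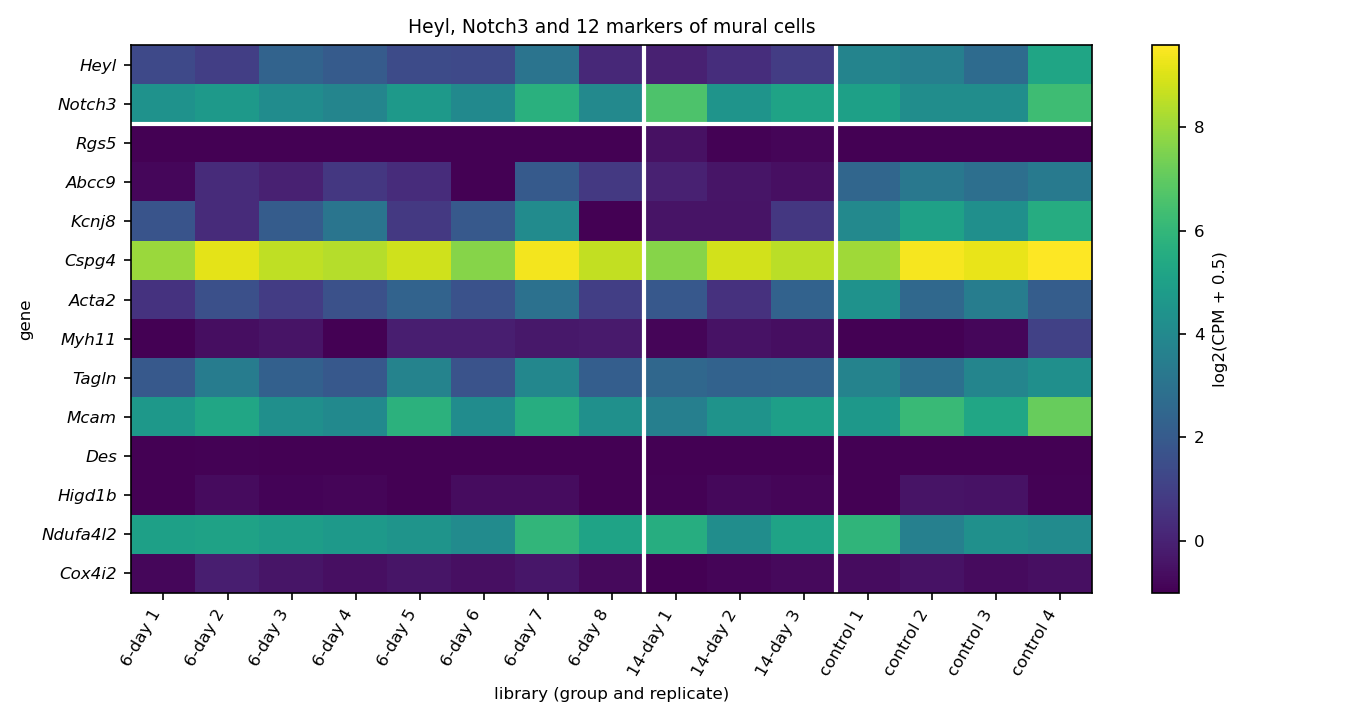
Heat map of Heyl, Notch3 and the 12 mural markers as log2(CPM + 0.5), with 1 column per library in the order 6-day, 14-day, control. Abcc9 and Kcnj8 are darker in the 14-day columns than in the control columns, as is Heyl, while Rgs5, Des, Higd1b and Cox4i2 are dark in every column.

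Hey1 and Hey2, the other HEY repressors, were low throughout. Hey1 (chromosome 3, 8663359 to 8667038, minus strand) ran from 1.30 CPM to 10.3 CPM at 6 days with a median of 5.11 CPM, was at 1.06, 6.65 and 5.42 CPM at 14 days and at 3.14, 3.83, 3.78 and 4.87 CPM in controls. The treated libraries lay on both sides of the controls, with log2 fold changes of 0.40 ± 0.56 at 6 days (adjusted p = 0.896) and 0.16 ± 0.68 at 14 days (0.917). Hey2 (chromosome 10, 30832359 to 30842783, minus strand) had no count in 2 6-day and 2 control libraries and reached 1.35 CPM at most. Its 14-day log2 fold change of -0.72 has a 95% interval of -4.15 to 2.72, so a difference was not detectable at this depth unless large.

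**Figure D4:**
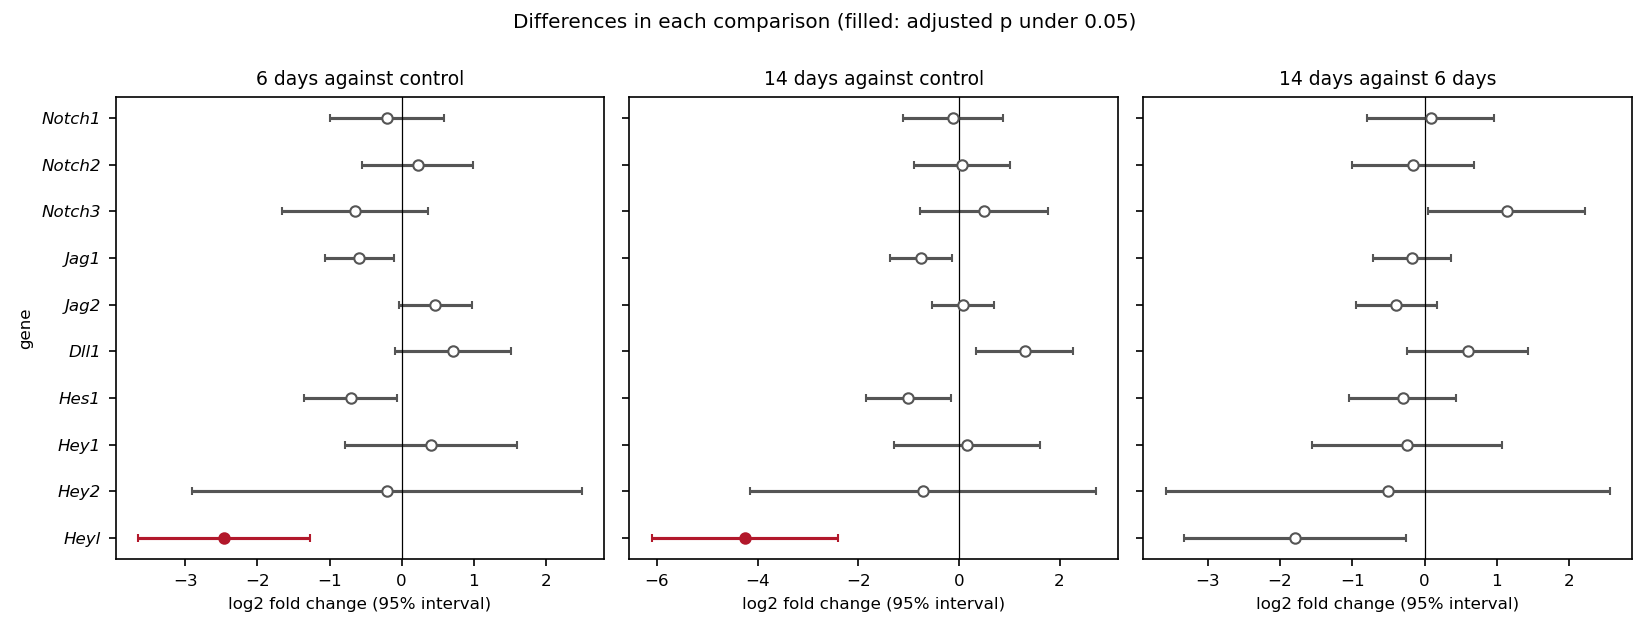
Log2 fold change and 95% interval of each of the 10 genes in the 3 comparisons, filled where the adjusted p was under 0.05. Heyl is filled at 6 and 14 days against control, at -2.46 and -4.25, and no gene is filled for 14 against 6 days.

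By likeness of profile, the genes nearest to Heyl among 10619 genes that averaged 10 CPM or more were Sox13, the unnamed gene with Entrez identifier 102643135, Lap3, Sms-ps and Cldn10. Likeness was the root mean square gap between centred log2(CPM + 0.5) profiles over the 15 libraries. These libraries differ in depth and identifier range, and the part of this in the likeness was not tested. The gaps ran from 0.657 for Sox13 to 0.692 for Cldn10, against a spread of 1.44 for Heyl itself. Sox13, a SOX transcription factor, averaged 253 ± 190 CPM at 6 days, 104 ± 73.9 CPM at 14 days and 786 ± 339 CPM in controls. Lap3, a leucine aminopeptidase, averaged 279 ± 142, 128 ± 25.7 and 881 ± 191 CPM in the same groups. Reads of the pseudogene Sms-ps may be shared with its parent gene and are uncertain.

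The promoters of 3 target genes are printed to show where the letters bound by RBPJ lie in them. RefSeq promoters (GRCm38.p6, 250 bases before a listed start of the gene to 50 after it) were at hand for 7 of the 10 members. None was at hand for Hes1, Hey1 or Heyl. The core TGGGAA was searched on both strands and occurs in 25.6% of 32851 promoters. Hey2 was the 1 of these 7 members with a match. Hes5, a target in the nervous system that reached 0.582 CPM at most here, and Nrarp, a feedback inhibitor whose protein binds the Notch complex, are shown beside it. Hey2 lies on chr10:30842734-30843033 (minus strand), Hes5 on chr4:154960673-154960972 (plus strand) and Nrarp on chr2:25180508-25180807 (plus strand), each read 5′ to 3′ along its gene, with the core in capitals and, where it faces backwards, as its reverse complement TTCCCA.
Hey2: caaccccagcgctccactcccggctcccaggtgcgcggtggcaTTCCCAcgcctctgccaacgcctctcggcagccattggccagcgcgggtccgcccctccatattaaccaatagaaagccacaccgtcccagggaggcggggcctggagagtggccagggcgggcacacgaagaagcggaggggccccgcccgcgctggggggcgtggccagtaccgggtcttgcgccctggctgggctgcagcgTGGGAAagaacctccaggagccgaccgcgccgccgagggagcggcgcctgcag
Hes5: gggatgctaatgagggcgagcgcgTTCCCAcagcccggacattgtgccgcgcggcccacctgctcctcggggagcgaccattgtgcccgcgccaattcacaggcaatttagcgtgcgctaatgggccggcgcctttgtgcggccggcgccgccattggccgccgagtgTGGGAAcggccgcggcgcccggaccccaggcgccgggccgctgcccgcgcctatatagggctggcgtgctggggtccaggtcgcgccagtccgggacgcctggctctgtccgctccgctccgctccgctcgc
Nrarp: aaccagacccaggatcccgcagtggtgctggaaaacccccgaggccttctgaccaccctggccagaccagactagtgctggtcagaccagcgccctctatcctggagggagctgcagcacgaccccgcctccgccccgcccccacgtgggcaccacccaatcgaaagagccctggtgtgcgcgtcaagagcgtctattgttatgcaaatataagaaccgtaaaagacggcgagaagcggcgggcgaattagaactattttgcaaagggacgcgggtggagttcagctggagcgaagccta
Positions count the base before the listed start as -1. In Hey2 the core starts at -207 on the opposite strand and at -3 on the gene's own strand, both times within CGTGGGAA, which 0.734% of promoters hold. In Hes5 it starts at -226 and -82, within TGTGGGAA (1.86% of promoters). The Hes5 window lies inside the gene's full span, 154960626 to 154962372, so its listed start is not the outermost base of the gene. Nrarp has no core in this window. Hey2 and Hes5, which hold a pair of cores, were near 0 in all groups. Other genes searched hold a pair too and were not near 0. Lfng, with the core at -135 and -108, averaged 115 to 154 CPM in the groups. Rbpj, with the core at -149 and -65 in a listed promoter, averaged 15.6 to 23.5 CPM. A match or its lack says nothing of binding.

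Nrarp fell at 14 days. It was at 125, 69.0 and 99.6 CPM in 14-day libraries, ran from 100.5 CPM to 175 CPM at 6 days with a median of 112 CPM, and was at 170, 178, 153 and 236 CPM in controls. All 14-day libraries lay below every control, the log2 fold change being -0.91 ± 0.25 (adjusted p = 0.0409, kept in 4 of 15 fits that left out 1 library). At 6 days the log2 fold change was -0.58 ± 0.19 (adjusted p = 0.183), with 2 of 8 libraries inside the control range.

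Of the 77 other genes listed for the pathway, 70 were tested. At 14 days 4 were higher and 4 lower, where 6.60% of all genes were called. At 14 against 6 days 1 was higher and 3 were lower, where 3.89% were called. At 6 days 0 were called by edgeR, where 1.26% of all genes were called. DESeq2 then called 2 (846 of 18751 genes in all) and limma-voom 3 (826 of 18751). At an unadjusted edgeR p under 0.05 were 10 at 6 days, 17 at 14 days and 19 at 14 against 6 days. The share over all genes at this threshold was not counted, so nothing is read from these counts. The median log2 fold change of the 70 was 0.08 at 6 days, -0.05 at 14 days and -0.01 between the times. Over all genes it was 0.03, -0.02 and -0.06.

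Neurl2, a relative of the ubiquitin ligase Neuralized, which acts on Delta ligands in the fly, fell at 14 days, to 4.46, 8.19 and 5.39 CPM, against 10.8 CPM to 18.1 CPM at 6 days and 8.65, 15.7, 14.3 and 17.5 CPM in controls (log2 fold change -1.22 ± 0.29, adjusted p = 0.0225), and was also lower than at 6 days (-1.30, 0.0222). Neurl2 overlaps Ctsa on the opposite strand, and how the counting treated strand is unknown.

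Of the Deltex family, named for a Notch regulator of the fly, Dtx3 fell and Dtx3l rose at 14 days. Dtx3 was at 65.1, 160 and 107 CPM in 14-day libraries, from 246 CPM to 533 CPM at 6 days and at 169, 305, 331 and 717 CPM in controls, with log2 fold changes of -1.78 ± 0.44 against control (adjusted p = 0.0267) and -1.73 ± 0.41 against 6 days (0.0346). Dtx3l, which pairs with the interferon-induced Parp9 and shares exon sequence with it on the opposite strand, was at 60.2, 44.6 and 51.6 CPM at 14 days, from 19.3 CPM to 29.0 CPM at 6 days and at 33.6, 24.9, 8.50 and 17.4 CPM in controls. Its log2 fold changes were 1.30 ± 0.33 against control (adjusted p = 0.0285) and 1.12 ± 0.28 against 6 days (0.0395). Summed myeloid markers were at 25.0 to 34.5 CPM in 14-day, 4.51 to 12.7 CPM in 6-day and 5.17 to 10.9 CPM in control libraries. Of 10 tested, 4 were higher at 14 days against control, where 6.60% of all genes were called. These sums were higher at 14 days, as was Dtx3l, while Dtx3 was lower. The part of myeloid cells in either change was not tested.

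Among further targets, Gata3 rose and Hes3 fell at 14 days against control, and Hes7 was lower at 14 days against 6 days. Gata3, a factor of hair follicle and epidermal lineages, was at 651, 263 and 399.8 CPM at 14 days, from 192 CPM to 297 CPM at 6 days and at 279, 160, 182 and 243 CPM in controls (log2 fold change 1.02 ± 0.28, adjusted p = 0.0436), and overlapped the controls through 14-day replicate 2. Hes3 had at most 0.269 CPM at 14 days and at least 1.28 CPM in controls (-4.02 ± 1.13, adjusted p = 0.0457), and Hes7 had at most 0.383 CPM at 14 days and at least 0.530 CPM at 6 days (-1.999 ± 0.50 against 6 days, 0.0399). Against control, Hes7 was not called at 14 days (-1.35, adjusted p = 0.131).

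These calls differed in how they held when each of the 15 libraries was left out. Against control, Neurl2 kept its call in 13 fits (lost without 14-day replicate 1 or 3), Dtx3 in 12 (lost without 14-day replicate 1 or 3 or control replicate 4) and Dtx3l in 10, lost without any 14-day library or without control replicate 2 or 4. Hes3 kept it in 6 and Gata3 in 3, and at 14 against 6 days Neurl2 kept it in 13, Dtx3 in 10, Dtx3l in 5 (highest adjusted p = 0.305) and Hes7 in 4.

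**Figure D5:**
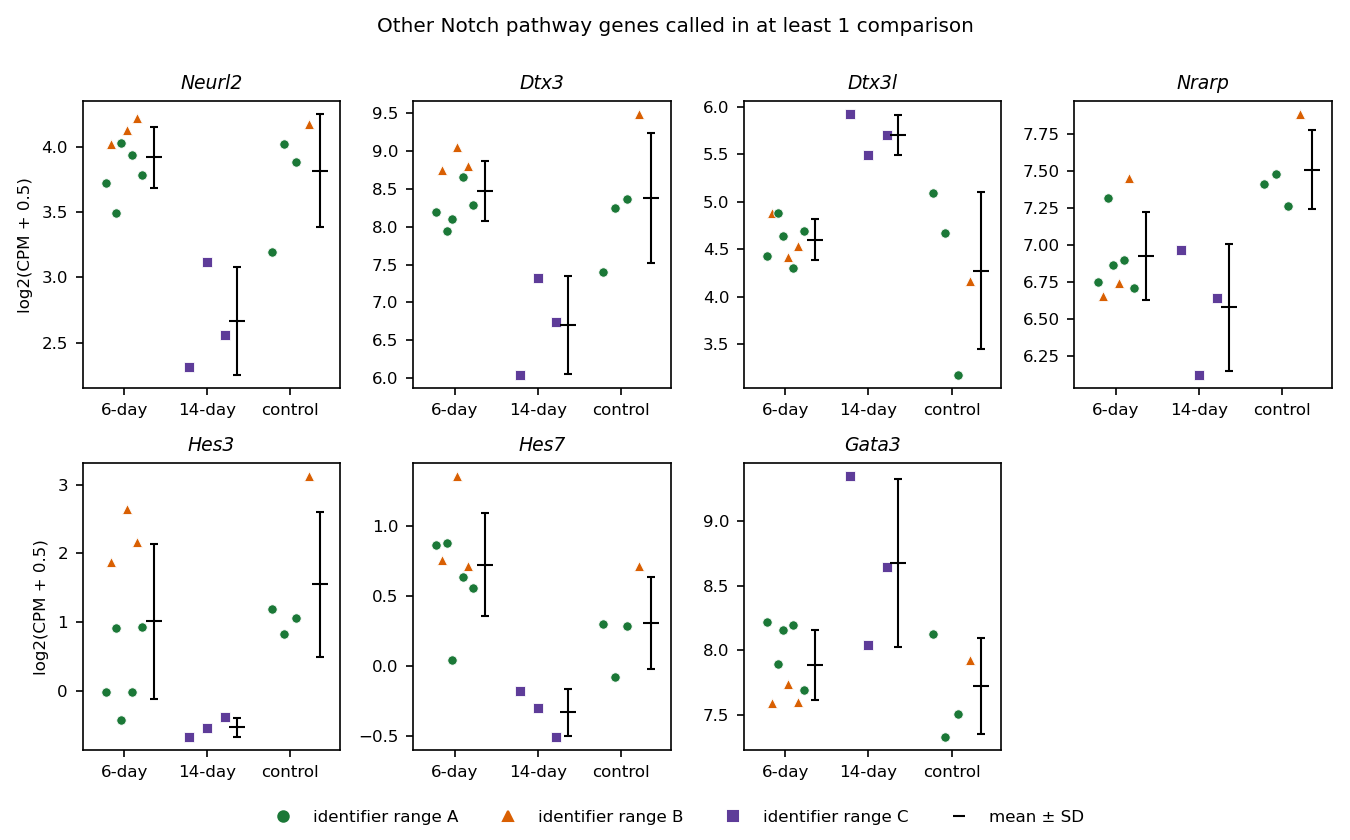
Other pathway genes (7 shown) called in at least 1 comparison, as log2(CPM + 0.5) in each library by group, with the group mean ± SD as a bar. For Dtx3l every 14-day library lies above every library of both other groups, and for Neurl2, Dtx3 and Hes3 below every control.

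Rbpj, the DNA-binding partner of Notch, was at 10.6, 20.8 and 15.5 CPM at 14 days, from 16.5 CPM to 31.2 CPM at 6 days and at 14.1, 13.8, 15.1 and 27.4 CPM in controls, and was not called (log2 fold change 0.41 at 6 days with adjusted p = 0.542, and -0.17 at 14 days with 0.775). Lfng, a Fringe glycosyltransferase that tunes which ligands a receptor answers, averaged 154 ± 73.4 CPM at 6 days, 115 ± 23.1 CPM at 14 days and 152 ± 77.3 CPM in controls, and was not called either (adjusted p = 0.997 and 0.647). Dll4, an endothelial ligand, and Mfng, another Fringe, stayed under 1 CPM in every library.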

How the data were processed

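Polyadenylated RNA was purified from sorted tumour cells on RNeasy columns, per the labels' protocols. Per the file headers, the authors' deposited counts are uniquely aligning reads per gene, and the authors' deposited RPKM values are those counts per length after scaling by size factors. GSNAP and GRCm38 are named in the submitters' processing notes. The version, annotation, strand handling and kit were not given in the sources used here.

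Identifiers were matched to RefSeq symbols for 31049 of 36528 genes, and unmatched genes held 1.24 to 1.59% of counts. Coordinates and promoters are from RefSeq, GRCm38.p6. Counts were fitted with edgeR 4.0.16 (R 4.3.3) by its quasi-likelihood test, with TMM factors and filterByExpr, over all 15 libraries with no covariate (18751 genes, threshold 0.05). CPM are counts scaled to the library total multiplied by its TMM factor (0.8973 to 1.10), and RPKM were used for levels between genes and for no test. A count of 3, taken as the floor, is at most 0.105 CPM. Every pair of libraries differed by more than sampling noise (105 pairs, lowest ratio of chi-square to its degrees of freedom 52.8). The fit was tested on simulated counts for 18751 genes, in which it recovered 15 of 100 genes changed 2-fold and 55 of 100 changed 4-fold at 6 days, 5 and 45 at 14 days, and 11 and 56 between the times.

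Groups came from the treatment label, and replicate numbers follow accession order. Named genes are the 10 members, other pathway genes that passed in any comparison (some are not reported here), 7 fixed by name, and the 5 genes most like each called member. The members and lists were chosen with earlier results of these data known. Alternatives were RLE factors, 2 other filters, DESeq2 1.42.0, limma-voom 3.58.1 with sample weights, fits of the 2 groups compared, the identifier ranges, and leaving out 1 library at a time.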

Additional observations from a re-analysis of the deposited data

Results flagged for a closer look

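Notch1 in control replicate 4 stood apart from its group, at 619 CPM against 134 to 141 CPM in the other controls, a gap of 0.969 of the group's whole range on the log2(CPM + 0.5) scale, where 0.829 marks the limit for 4 libraries. It was the 1 such case in 20 group checks of the members, and chance gives about 1 in 20. Notch1 was also the member whose 6-day effect differed between the identifier ranges, by -1.55 on the log2 scale in range B relative to range A (edgeR interaction test, adjusted p = 0.0429, 10 of 17843 genes called). The range B effect rests on control replicate 4 alone, so both observations share that library, and its cause was not tested.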

How the results depend on the processing

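The falls in Heyl kept their direction under every alternative run. At 6 days 0 members were called in the fit of the 2 groups compared, without the range B libraries and within range A. With range B as a covariate 2 (Heyl and Jag1) were called, where 866 of 18751 genes were called. Members called at 14 days were 4 by limma-voom (4205 of 18751 genes), 3 with the covariate (3196 of 18751) and 3 without range B (2330 of 17941). Between the times 1 member was called by DESeq2 (2609 of 18751), 1 with the covariate (2036 of 18751) and 1 without range B (1322 of 17941). The 14-day log2 fold change of Notch1 was -0.11 over all libraries and reversed to 0.77 without range B (adjusted p = 0.0208), control replicate 4 being among those left out. Other pathway genes called at 6 days were 2 by DESeq2, 3 by limma-voom, 2 with the covariate and 1 within range A. All genes called there were 846, 826 and 866 of 18751, and 468 of 17360 within range A. At 14 days other pathway genes called were 5 with no filter (939 of 27797 genes), 13 by DESeq2 (2752 of 18751) and 22 by limma-voom (4205 of 18751). They were 1 in the fit of the 2 groups (374 of 19089) and 15 with the covariate (3196 of 18751). Between the times they were 13 by DESeq2 (2609 of 18751), 21 by limma-voom (4693) and 9 with the covariate (2036).

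All genes called at 6 days were 236, and 846 by DESeq2, 826 by limma-voom, 866 with the covariate, 465 without range B and 468 within range A. At 14 days they were 1238, and 2752, 4205, 3196 and 2330 under DESeq2, limma-voom, the covariate and without range B, with 374 in the fit of the 2 groups. Between the times they were 730, and 2609, 4693, 2036 and 1322 under the same settings, with 460 under no filter. Leaving out each library in turn gave 69 to 308 genes at 6 days, 376 to 1438 at 14 days and 3 to 1138 between the times. The lowest of the last, 3, came without 14-day replicate 1. Members called ran from 0 to 1 at 6 and at 14 days and stayed at 0 between the times, and other pathway genes from 0 to 1, 0 to 8 and 0 to 6. Of the single-gene values under alternatives, 1535 stayed on the same side of the threshold (98 of them, none called, with the opposite sign), 118 lost a call, 31 gained one and 1 called value reversed. No paired analysis was possible because the labels carry no replicate numbers. In the simulated counts most 2-fold changes were not called in any comparison, with 5 of 100 recovered at 14 days. Fewer genes were changed there than the 1238 called at 14 days in the data, so recovery in the data may differ. Leave-one-out fits for 14 days rest on 2 libraries of that group.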
